A study of Monodelphis domestica with 2 samples.

Results

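The genes described here are GAD1, GAD2, SLC32A1, DLX1 and LHX6, which serve GABA synthesis, GABA loading and interneuron specification. They were chosen by symbol, and each of the 5 symbols matched 1 of the 30800 genes in the files (ENSMODG00000008529, ENSMODG00000008626, ENSMODG00000000429, ENSMODG00000008892 and ENSMODG00000019686). Single-nucleus RNA counts came from the primary visual cortex (V1) of 2 adult male gray short-tailed opossums (Monodelphis domestica), a marsupial, aged 1.5 years (animal 1) and 2 years (animal 2). The animals came from a laboratory colony and formed 1 group, and the labels give no treatment or genotype. V1 tissue was frozen, Draq5-positive nuclei were sorted, a different experimenter handled each animal, and each suspension was split into 2 libraries. The libraries of an animal are therefore 1 replicate, and the animal and its handling cannot be told apart. The 4 libraries held 55625042 to 69706055 UMIs (unique molecular identifiers, each standing for a captured RNA molecule).

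GABA is the main inhibitory transmitter of the cortex. GAD1 and GAD2 encode the glutamate decarboxylases that make it from glutamate, and SLC32A1 encodes the vesicular transporter that loads it into synaptic vesicles. DLX1 is a homeodomain transcription factor of the embryonic ganglionic eminences, where cortical interneurons are born. LHX6 is a LIM-homeodomain factor that acts in interneurons of the medial ganglionic eminence (MGE), the known source of Pvalb and Sst interneurons in other mammals. Vip and Lamp5 interneurons come largely from the caudal ganglionic eminence (CGE). Below, Pvalb and Sst are called the MGE subclasses and Vip, Lamp5 and Frem1 the CGE subclasses. The split is taken from that background and not from the labels.

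The study labelled 4347 nuclei as GABAergic (13.3% of 32764 labelled nuclei), in 5 subclasses and 15 types. There were 2146 Pvalb, 1020 Sst, 506 Vip, 370 Lamp5 and 305 Frem1 nuclei, all found in both animals. Median depth was 4682 to 7195 UMIs per nucleus, and a summed subclass of 1 animal held 867616 to 8800145 UMIs. Of the naming genes, SST, VIP and LAMP5 had their highest mean level in the subclass of that name, at 321 ± 41.6, 240 ± 1.76 and 188 ± 32.6 CPM (UMIs of the gene per 1000000 UMIs of the sum, SD, n = 2 animals). FREM1 was at 62.3 ± 16.2 CPM in Frem1 and at 67.9 ± 12.6 CPM in Lamp5, so it does not tell these 2 apart. PVALB had no symbol in the files. The labels come from clustering the same counts, and the study used GAD1 and GAD2 to tell the GABAergic class. The contrast of GABAergic with other nuclei is therefore a description, and tests between subclasses or types are of groups that these counts helped to define.

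Over the class as a whole, all 5 genes were higher in GABAergic than in other nuclei of both animals. In GABAergic nuclei GAD1 was at 484 ± 23.2, GAD2 at 548 ± 3.43, SLC32A1 at 40.1 ± 5.52, DLX1 at 29.4 ± 3.25 and LHX6 at 168 ± 10.2 CPM (SD, n = 2). In glutamatergic nuclei the same genes were at 3.93 ± 0.765, 3.99 ± 0.699, 0.831 ± 0.0576, 0.387 ± 0.0829 and 1.05 ± 0.107 CPM. In non-neuronal nuclei they were at 9.42 ± 3.49, 7.41 ± 1.55, 2.14 ± 0.600, 0.756 ± 0.0800 and 2.23 ± 0.0300 CPM. The lowest ratio of GABAergic to glutamatergic level in either animal was 45.8, for SLC32A1 in animal 2, and the highest was 180, for LHX6 in animal 1. These levels are not scaled by gene length, so they order subclasses for 1 gene but do not order the genes.

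**Figure D1:**
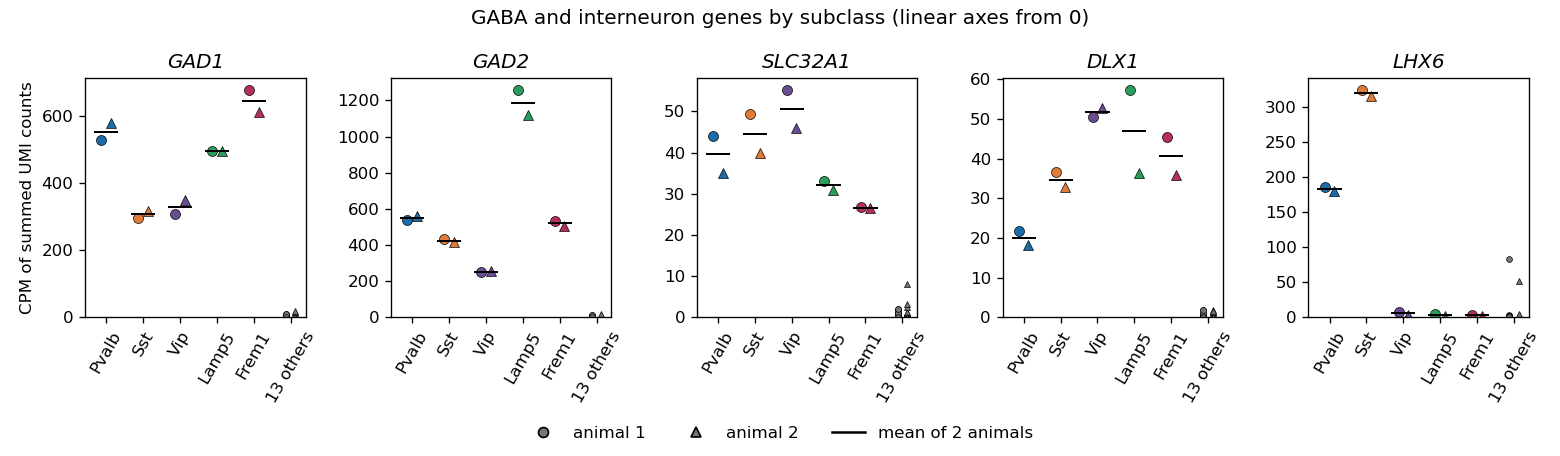
Level of each gene (CPM of UMI counts summed per animal and subclass, linear axes from 0) in the 5 GABAergic subclasses and in the 13 other subclasses, with circles for animal 1, triangles for animal 2 and a bar at the mean. LHX6 stands high in Pvalb and Sst alone among GABAergic subclasses, GAD2 is highest in Lamp5, and the 2 grey LHX6 points at 82.5 and 51.8 CPM are endothelial nuclei.

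Among the 13 other subclasses, no animal had GAD1 above 19.1 CPM or GAD2 above 17.3 CPM. SLC32A1 stayed at or below 7.97 CPM and DLX1 at or below 1.89 CPM. LHX6 had 1 exception. In endothelial nuclei (Endo) it was at 82.5 CPM in animal 1 and 51.8 CPM in animal 2, but this rests on 7 UMIs in 6 of 65 nuclei, pooled 65.8 CPM with an exact Poisson 95% interval of 26.5 to 136. Of the other 12 subclasses, the glutamatergic ones had at most 2.99 CPM of LHX6 in either animal. The non-neuronal ones had at most 4.78 CPM, on 3 UMIs in microglia of animal 2, and at most 2.59 CPM pooled over animals. The Endo nuclei carried the endothelial markers FLT1 at 2614 ± 471 CPM and CLDN5 at 452 ± 289 CPM, and GAD1, SLC32A1 and DLX1 had no UMI there.

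Of the 5 genes, LHX6 gave the sharpest division within the GABAergic class. It was at 185 and 180 CPM in Pvalb (animals 1 and 2) and at 324 and 316 CPM in Sst. In Vip it was at 7.90 and 3.71 CPM, in Lamp5 at 4.85 and 1.55 CPM, and in Frem1 at 2.68 and 2.31 CPM. Both animals of both MGE subclasses were thus far above every CGE value, and the lowest Sst value was above the highest Pvalb value. The CGE values rest on 15 UMIs in Vip, 8 in Lamp5 and 5 in Frem1, against 3011 in Pvalb and 1982 in Sst.

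DLX1 ran the other way and over a narrower range. Its level was 21.7 and 18.2 CPM in Pvalb, 36.6 and 32.7 in Sst, 50.5 and 52.7 in Vip, 57.3 and 36.4 in Lamp5, and 45.5 and 35.7 in Frem1. Pvalb was the lowest in both animals and overlapped no other subclass. Sst overlapped Lamp5 and Frem1 but lay below both Vip values.

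For the synthesis genes the order did not follow the MGE and CGE split. GAD1 was at 529 and 578 CPM in Pvalb, 297 and 317 in Sst, 307 and 348 in Vip, 495 and 496 in Lamp5, and 679 and 613 in Frem1. GAD1 was thus highest in Frem1 and lowest in Sst and Vip, whose values overlapped. GAD2 was at 536 and 559 CPM in Pvalb, 432 and 416 in Sst, 250 and 254 in Vip, 1259 and 1117 in Lamp5, and 531 and 507 in Frem1. Lamp5 stood above all other GABAergic sums for GAD2 and Vip below all of them.

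SLC32A1 had low counts and the flattest profile of the GABA genes. It was at 44.0 and 35.2 CPM in Pvalb, 49.3 and 39.9 in Sst, 55.3 and 46.0 in Vip, 33.1 and 31.0 in Lamp5, and 26.8 and 26.5 in Frem1. Frem1 lay below every other subclass in both animals. Lamp5 lay below Pvalb, Sst and Vip, while Sst overlapped both Pvalb and Vip.

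The comparison of the MGE with the CGE subclasses asked which of these genes follow the origin of interneurons. The mean of Pvalb and Sst was set against the mean of Vip, Lamp5 and Frem1 in edgeR's quasi-likelihood test on the 10 sums (5 subclasses in 2 animals). Of 11100 genes tested, 3577 passed an adjusted p of 0.05 (32.2%). Of the 5 genes, 2 passed, a share not far from that of all genes. LHX6 was higher in the MGE subclasses by 6.07 ± 0.16 on the log2 scale (SE, adjusted p = 4.99e-12), and DLX1 was lower by a log2 difference of -0.80 ± 0.13 (adjusted p = 0.000343).

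The 3 GABA genes did not pass in that comparison, with log2 differences of -0.19 for GAD1 (adjusted p = 0.0573), -0.15 for GAD2 (adjusted p = 0.0849) and 0.27 for SLC32A1 (adjusted p = 0.112) in edgeR. With the animal as a block the first pair passed (adjusted p = 0.0141 and 0.0420) and SLC32A1 did not (adjusted p = 0.0501). The differences themselves stayed at -0.19, -0.15 and 0.27. Without the shallow types Pvalb_2 and Sst_2, an alternative chosen after seeing the data, SLC32A1 passed at 0.40 (adjusted p = 0.0125). The tested sums come from clusters of the same counts. Subclass labels were also predicted from genes other than these, after training on the deposited labels. They matched the deposited labels in 98.8% and 97.3% of GABAergic nuclei (animals 1 and 2), so they cannot remove that dependence. With them LHX6 was higher by 5.69 and DLX1 lower, at -0.80, and both passed (adjusted p = 2.12e-11 and 0.000312 in edgeR).

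Other genes of both pathways were measured from 2 lists. Of 22 genes of GABA metabolism and transport, 17 had a symbol and 16 were tested, and 6 passed, 2 higher in the MGE and 4 higher in the CGE subclasses, where all genes tested gave 1912 and 1665. None of these 6 is among the 5 genes above. Higher in the MGE subclasses were the amino acid transporter SLC38A3 (1.03 ± 0.23) and ALDH5A1, which encodes an enzyme of GABA breakdown (0.53 ± 0.14). Among those higher in the CGE subclasses were glutamine synthetase GLUL (-1.24 ± 0.13), the GABA transporter SLC6A11 (-0.94 ± 0.13) and monoamine oxidase MAOB (-0.83 ± 0.28). By mean level, GLUL (21.5 and 26.3 CPM in Pvalb and Sst, 46.5 to 82.2 in the CGE subclasses) and ALDH5A1 (46.8 and 38.1, against 28.1 to 30.6) differed the same way in each subclass, and the other 3 genes did not. SLC38A3 was at 23.2 CPM in Pvalb alone and at 5.76 to 6.45 CPM in the other 4 subclasses. SLC6A11 was at 24.4 CPM in Pvalb and at 111 CPM in Sst, beside 93.1 in Vip, 119 in Lamp5 and 91.9 in Frem1. MAOB was lowest in Frem1, at 4.72 CPM, with 5.49 in Pvalb, 12.1 in Sst, 23.0 in Vip and 27.6 in Lamp5. The median log2 difference of the tested list was -0.07, beside -0.0038 for all genes tested.

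GLUL, SLC6A11, ALDH5A1, SLC38A3 and MAOB all had their highest level of any subclass in astrocytes. The astrocyte marker AQP4 was at 2.05 CPM in Pvalb, 2.41 in Sst, 4.62 in Vip, 1.97 in Lamp5 and 8.31 in Frem1, and SLC1A2 was at 61.9, 99.6, 101, 120 and 118 CPM. The third astrocyte marker, ALDH1L1, was at 1.91 to 4.18 CPM. The part of astrocyte RNA in these differences was not tested.

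Of 32 genes tied to interneuron identity, mostly transcription factors, 29 had a symbol and 26 were tested, and 20 passed, 10 in each direction. Without LHX6 and DLX1, 18 of 24 passed, where 32.2% of all genes tested did. The list was assembled for genes of this kind with earlier results known, so its share is a description. Its median log2 difference was -0.12, and its median absolute difference was 1.44, beside 0.27 for all genes tested. Of both lists together, 18 genes passed and differed at least 2-fold, and the largest of those reported here are given. LHX6 led those higher in the MGE subclasses, followed by SOX6 (5.38 ± 0.16) and SATB1 (4.10 ± 0.09), which are known to act in MGE interneurons, and by BCL11B (1.96 ± 0.08). BCL11B was at 427 CPM in Pvalb, 438 in Sst and 541 in Lamp5, and at 37.9 in Vip and 67.5 in Frem1, so its highest mean level among GABAergic subclasses was in Lamp5, a CGE subclass. Higher in the CGE subclasses were ADARB2 (-8.08 ± 0.14), a protein of the RNA-editing family and not a transcription factor, and PROX1 (-7.03 ± 0.21), a homeodomain factor of CGE interneurons. SP8 (-6.00 ± 0.56), NFIX (-4.06 ± 0.14), NFIB (-4.03 ± 0.07), NR2F2 (-4.01 ± 0.22) and TSHZ1 (-2.83 ± 0.33) followed.

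DLX2, the homeobox gene next to DLX1 in the RefSeq annotation of mMonDom1, was lower in the MGE subclasses by a log2 difference of -1.03 ± 0.18 (adjusted p = 0.000536 in edgeR). Its mean level was 7.69 CPM in Pvalb, 10.4 in Sst, 21.8 in Vip, 15.5 in Lamp5 and 18.3 in Frem1, so DLX1 and DLX2 both had their lowest mean level in Pvalb and their highest in Vip, though in animal 1 DLX1 was highest in Lamp5. NKX2-1, which precedes LHX6 in the embryonic MGE, was at 0.24 CPM in Pvalb and 0.19 CPM in Sst and was too low to test. The same annotation placed no gene over any of the 5 genes. It is of another assembly than ASM229v1, to which the reads were aligned, and the study also lengthened the 3′ ends of many genes. Overlap of the genes as counted was therefore not tested.

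**Figure D2:**
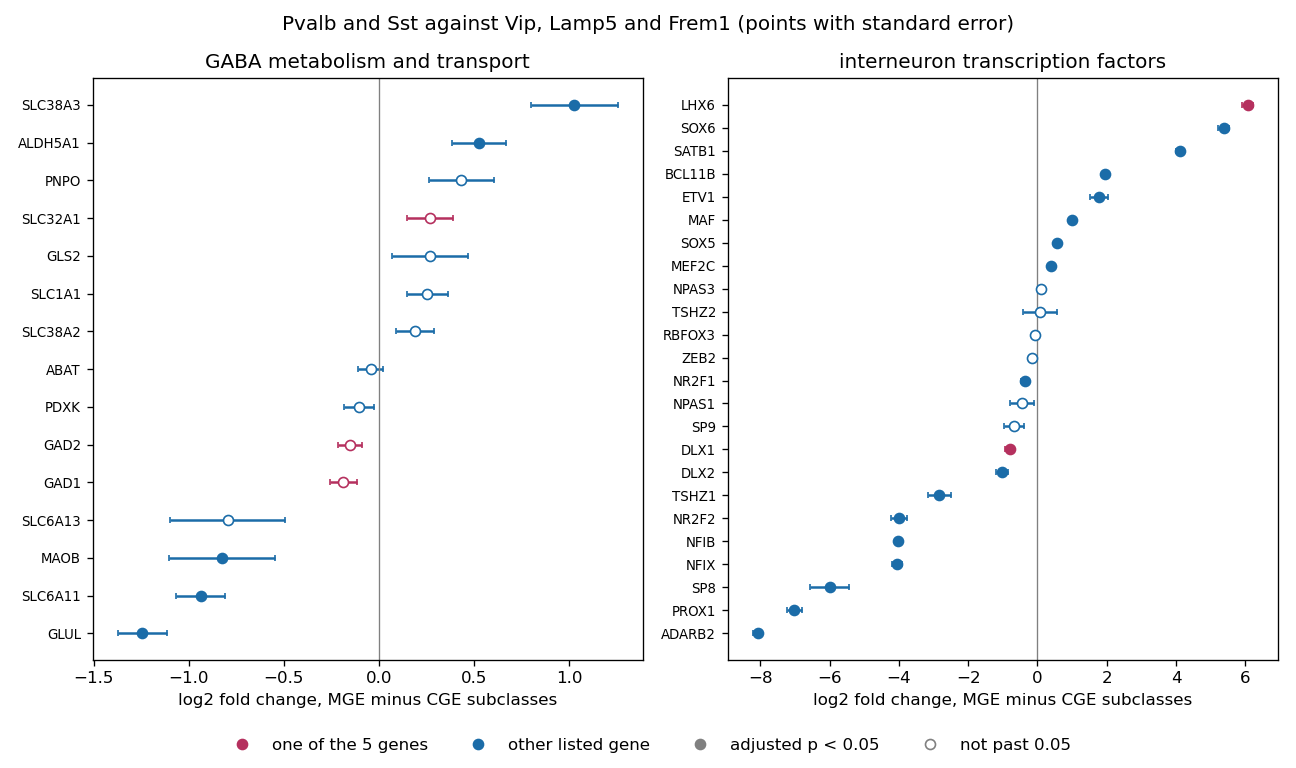
Log2 fold change (MGE minus CGE subclasses) with its standard error from the edgeR fit for tested genes of both lists, filled where the adjusted p is under 0.05 and red for the 5 genes. GAD1, GAD2 and SLC32A1 lie within 0.3 of 0, DLX1 is at -0.80 and LHX6 is at 6.07.

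Each of the 10 pairs of subclasses was then tested in the same fit. Of the 5 genes, 4 passed for Pvalb against Sst, where 24.3% of all genes passed, and 4 for Pvalb against Vip (28.4%). There were 3 for Pvalb against Lamp5 (27.5%) and 2 for Pvalb against Frem1 (27.1%). Sst gave 2 against Vip (22.4%), 3 against Lamp5 (23.7%) and 3 against Frem1 (22.5%). Among the CGE subclasses, 2 passed for Vip against Lamp5 (17.9%), 3 for Vip against Frem1 (11.0%) and 2 for Lamp5 against Frem1 (14.4%). The pairs share their sums, so these counts do not stand alone.

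GAD2 passed in 8 of the 10 pairs, and its largest difference was between Vip and Lamp5, at -2.26 ± 0.10 on the log2 scale (4.79-fold lower in Vip, adjusted p = 4.03e-09 in edgeR). Lamp5 was higher than each other subclass, by 2.19-fold over Pvalb, 2.33-fold over Frem1 and 2.82-fold over Sst. Pvalb and Frem1 differed by 0.09 ± 0.10 (adjusted p = 0.572), and Sst and Frem1 by -0.28 ± 0.10 (adjusted p = 0.0631, or 0.0279 with the animal as a block). Lamp5 also held the glutamatergic marker SV2B at 406 ± 25.1 CPM, against 34.2 to 54.8 CPM in the other GABAergic subclasses. SLC17A7 had no symbol, and a part of glutamatergic RNA in the Lamp5 values was not tested.

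GAD1 passed in 7 of the 10 pairs. Frem1 was 2.08-fold above Sst (adjusted p = 6.54e-06 in edgeR) and 1.97-fold above Vip (adjusted p = 4.81e-05). Pvalb was 1.80-fold above Sst and 1.71-fold above Vip, and Lamp5 was 1.62-fold above Sst and 1.54-fold above Vip. Sst and Vip, neighbours in the order, differed by -0.08 ± 0.11 on the log2 scale (adjusted p = 0.698). Pvalb differed from Lamp5 by 0.15 ± 0.11 (adjusted p = 0.360) and from Frem1 by -0.21 ± 0.11 (adjusted p = 0.181). Frem1 was 1.28-fold above Lamp5 (adjusted p = 0.0462), a call lost with no low-count filter, equal nuclei, all neuronal subclasses in the fit, or DESeq2, where adjusted p ranged from 0.0531 to 0.429.

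LHX6 passed in 7 of the 10 pairs, all 6 of an MGE with a CGE subclass and Sst over Pvalb. The difference of Sst over Pvalb was 0.81 ± 0.13 on the log2 scale (1.76-fold, adjusted p = 0.000253 in edgeR). Against Vip, Sst was higher by 5.81 ± 0.23 and Pvalb by 4.99 ± 0.24. The 3 CGE subclasses did not differ by the test, with adjusted p of 0.339 to 0.865 on 5 to 15 UMIs each, a depth at which Vip over Frem1 had an estimate of 1.18 ± 0.61.

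DLX1 passed in 4 pairs, those of Pvalb with each of the other subclasses. Pvalb was lower than Sst by a log2 difference of -0.80 ± 0.19, than Vip by -1.36 ± 0.20, than Lamp5 by -1.24 ± 0.21 and than Frem1 by -1.02 ± 0.22 (largest adjusted p = 0.00620 in edgeR). The difference from Sst lost its call with equal nuclei and with all neuronal subclasses in the fit (adjusted p = 0.0618 and 0.0716). Sst against Vip had -0.55 ± 0.21 (adjusted p = 0.0742, or 0.0165 with the animal as a block), and Sst against Frem1 -0.22 ± 0.23 (adjusted p = 0.575). All 4 calls thus involve Pvalb, and none is between Sst and a CGE subclass.

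SLC32A1 passed in 2 pairs, with Frem1 lower than Sst by 0.77 ± 0.22 (adjusted p = 0.0190 in edgeR) and lower than Vip by 0.92 ± 0.23 (adjusted p = 0.0166). With the animal as a block 5 pairs passed, adding Pvalb over Frem1 (adjusted p = 0.0182), Sst over Lamp5 (adjusted p = 0.0499) and Vip over Lamp5 (adjusted p = 0.0198). The same 3 pairs were added without Pvalb_2 and Sst_2 (adjusted p = 0.0129, 0.0209 and 0.0348). DESeq2 called 0 of the 10 pairs (3 at an unadjusted p under 0.05), with adjusted p of 0.0739 and 0.0512 for the 2 pairs that passed in edgeR.

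The balance of the 2 decarboxylases differed more between subclasses than between animals. The ratio of GAD1 to GAD2 UMIs was 0.393 and 0.444 in Lamp5, 0.688 and 0.763 in Sst, 0.987 and 1.03 in Pvalb, 1.28 and 1.21 in Frem1, and 1.23 and 1.37 in Vip. The ratios of Frem1 and Vip overlapped and no others did. As the 2 genes were not scaled by length, a ratio of 1 does not mean equal expression, and the ratio is compared across groups only.

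Types within a subclass were compared with an F test over all types of that subclass, each with at least 20 nuclei in both animals, in 1 fit of 30 sums and 10748 genes. All 5 genes differed among the 6 Pvalb types, where 31.3% of genes passed. Among the 4 Sst types 3 did (18.7% of genes), among the 2 Vip types 2 (2.49%), and between the 2 Lamp5 types 0 (1.14%, with 1 at an unadjusted p under 0.05 in edgeR). Frem1 has a single type. Pvalb_2 and Sst_2 were shallower than the other types of their subclasses. The median depth was 2310 and 4924 UMIs per nucleus in Pvalb_2 (animals 1 and 2), against 6162.5 to 10580 in the other Pvalb types, and 1621 and 2586 in Sst_2, against 6692 to 7736.5. In Sst_2, 34.0% and 25.2% of nuclei had no UMI of GAD1, GAD2 or SLC32A1. With both types left out, an alternative chosen after seeing the data, 4 of the 5 genes passed among Pvalb types and 1 among Sst types, and the number of genes called fell from 3365 to 2432 and from 2010 to 1051.

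Of the Vip types, Vip_1 had more GAD1 and Vip_2 more GAD2. GAD1 was at 348 and 408 CPM in Vip_1 and at 213 and 249 in Vip_2 (animals 1 and 2), a log2 difference of 0.69 (adjusted p = 0.00606 in edgeR). GAD2 was at 204 and 201 CPM in Vip_1 and at 358 and 342 in Vip_2, a difference of 0.79 the other way (adjusted p = 0.00542). No value of a type overlapped the other type for either gene. The ratio of GAD1 to GAD2 was 1.70 and 2.03 in Vip_1 and 0.596 and 0.728 in Vip_2, so the ratio of the Vip subclass is a mean of unlike types. DLX1, SLC32A1 and LHX6 did not pass between them (adjusted p = 0.580, 0.603 and 1).

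Among Pvalb types, GAD2 was 2.41-fold higher in Pvalb_4 (585 and 764 CPM) than in Pvalb_5 (280 and 257 CPM, adjusted p = 1.16e-06 for the 6 types in edgeR). GAD1 in Pvalb_5 was at 493 and 502 CPM, inside the range of the other Pvalb types, so its ratio of GAD1 to GAD2 was 1.76 and 1.95 where the other 5 types had 0.558 to 1.15. GAD1 was highest in Pvalb_4 (671 and 684 CPM) and lowest in Pvalb_6 (399 and 496 CPM, adjusted p = 0.0120). SLC32A1 was lowest in Pvalb_2, at 23.8 and 21.3 CPM, with 61.3 and 40.7 in Pvalb_4 (adjusted p = 0.0202). Without Pvalb_2 that call was lost (adjusted p = 0.799), so it rests on the shallowest Pvalb type.

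Both transcription factors also differed among Pvalb types. LHX6 was highest in Pvalb_6, at 270 and 234 CPM, and lowest in Pvalb_5, at 126 and 128 CPM, with no overlap (adjusted p = 0.000754 in edgeR). DLX1 was highest in Pvalb_4, at 36.3 and 35.0 CPM, and lowest in Pvalb_6, at 10.1 and 13.2 CPM (adjusted p = 0.00260). In animal 2 Pvalb_2 was lower still, at 11.5 CPM. Without Pvalb_2 both genes kept their call (adjusted p = 0.000680 for LHX6 and 0.00336 for DLX1).

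**Figure D3:**
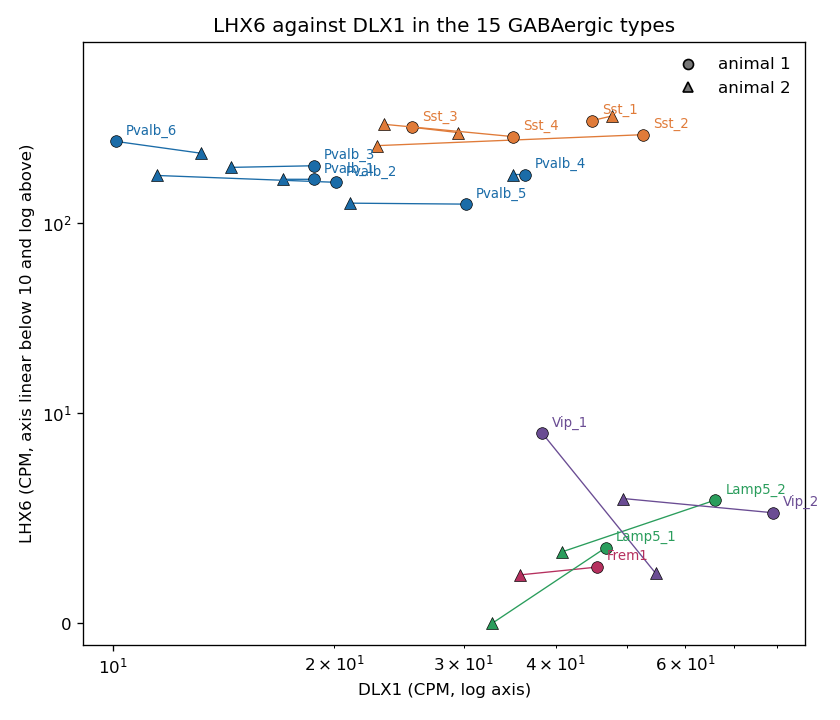
LHX6 level (CPM, axis linear below 10 and log above) against DLX1 level (CPM, log axis) in the 15 GABAergic types, with circles for animal 1 and triangles for animal 2 of a type joined by a line. All Pvalb and Sst points lie above 100 CPM of LHX6 and all Vip, Lamp5 and Frem1 points below 10 CPM, and Pvalb_6 has the lowest DLX1 in animal 1.

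Among Sst types, SLC32A1 was lowest in Sst_2 (13.1 and 21.3 CPM, adjusted p = 0.00748 in edgeR for the 4 types). Sst_1 (55.4 and 55.0 CPM) and Sst_4 had the highest means, with Sst_4 below both Sst_1 values in animal 1 and above them, at 62.4 CPM, in animal 2. The Sst_2 values rest on 3 and 13 UMIs, and in animal 1 that is the 3 counts taken as a floor. Without Sst_2 the call was lost (adjusted p = 0.532). GAD1 and GAD2 were both highest in Sst_4, at 400 and 421 CPM for GAD1 (adjusted p = 0.00510) and 605 and 478 CPM for GAD2 (adjusted p = 0.0230). Without Sst_2 GAD1 still passed (adjusted p = 0.0146) and GAD2 did not (adjusted p = 0.162). LHX6 was at 257 to 368 CPM in all Sst types (adjusted p = 0.149), and DLX1 at 22.9 to 52.5 CPM (adjusted p = 0.191). Of the LHX6 values of Pvalb types, only animal 1 of Pvalb_6 reached into the Sst range.

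In the Lamp5 types, GAD2 was at 1247 and 1071 CPM in Lamp5_1 and at 1269 and 1172 in Lamp5_2, which overlapped (adjusted p = 0.953 in edgeR). GAD1 was at 615 and 557 CPM in Lamp5_1 and at 397 and 424 in Lamp5_2, which did not overlap, with an adjusted p of 0.0530, or 0.00780 with the animal as a block. High GAD2 was thus a feature of both Lamp5 types, and the ratio of GAD1 to GAD2 was 0.494 and 0.520 in Lamp5_1 and 0.313 and 0.361 in Lamp5_2, the lowest of the 15 types. LHX6 had 0 UMIs in Lamp5_1 of animal 2 and 2 to 4 UMIs in the other Lamp5 sums.

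**Figure D4:**
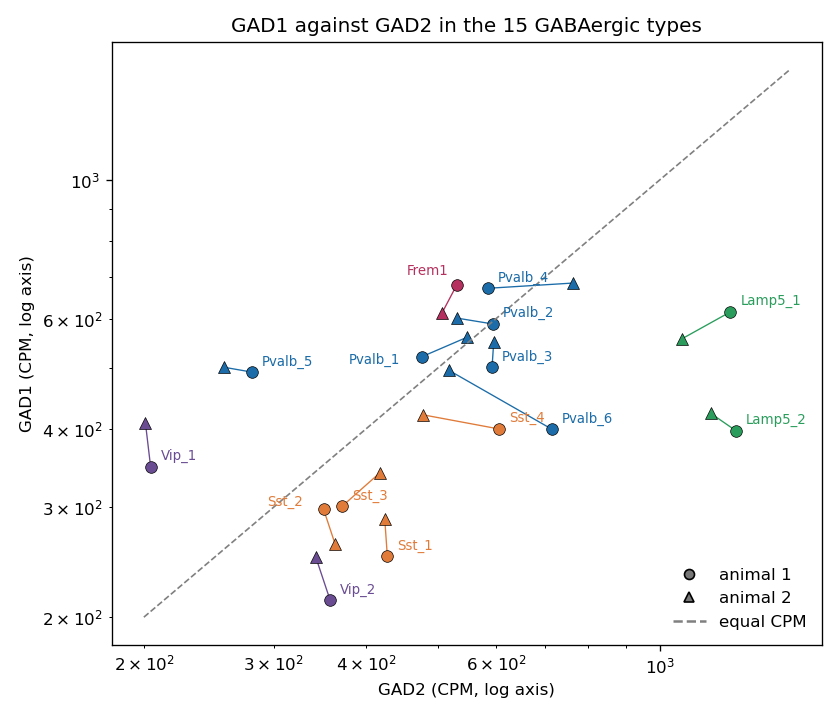
GAD1 level against GAD2 level (CPM, both axes log) in the 15 GABAergic types, with circles for animal 1 and triangles for animal 2 of a type joined by a line, and a dashed line at equal CPM. Vip_1 and Pvalb_5 lie above the line, the Lamp5 types lie far to its right, and Vip_1 and Vip_2 lie on opposite sides of it.

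The share of nuclei with a UMI depends on depth, so it was read with every nucleus thinned to 1000 UMIs, which left out 9 of 4347 GABAergic nuclei as shallower. At that depth GAD1 was seen in 25.7% to 49.4% of nuclei over the 10 GABAergic subclasses of an animal, and GAD2 in 20.3% to 67.9%. GAD2 was seen in 67.9% and 65.3% of Lamp5 nuclei and in 20.3% and 23.6% of Vip nuclei, in the order of the levels. LHX6 was seen in 28.7% and 26.0% of Sst, 17.1% and 16.1% of Pvalb and 0% to 0.719% of CGE nuclei. SLC32A1, with 2.41% to 5.41%, and DLX1, with 1.42% to 7.47%, lie near the level of 1 UMI, and their order was not read. In glutamatergic subclasses, which should lack these genes, the shares were at most 1.72% for GAD1 and GAD2 and at most 0.481% for the other 3 genes.

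Without thinning, GAD1 was seen in 65.1% to 93.4% and GAD2 in 58.7% to 98.8% of nuclei. SLC32A1 was seen in 12.9% to 27.0%, DLX1 in 12.6% to 35.1% and LHX6 in 0.990% to 78.7%. A Lamp5 nucleus had a median of 7 GAD2 UMIs, against 3 in Pvalb and Frem1, 2 in Sst and 1 in Vip. In 273 of 4347 GABAergic nuclei (6.28%, interval 5.58% to 7.04%) there was no UMI of GAD1 or GAD2, and these nuclei had a median of 1901 UMIs, against 6317 for all GABAergic nuclei. The share with neither was on average highest in Vip, at 13.2% and 15.2%, and lowest in Lamp5, at 0.595% and 3.47%.

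**Figure D5:**
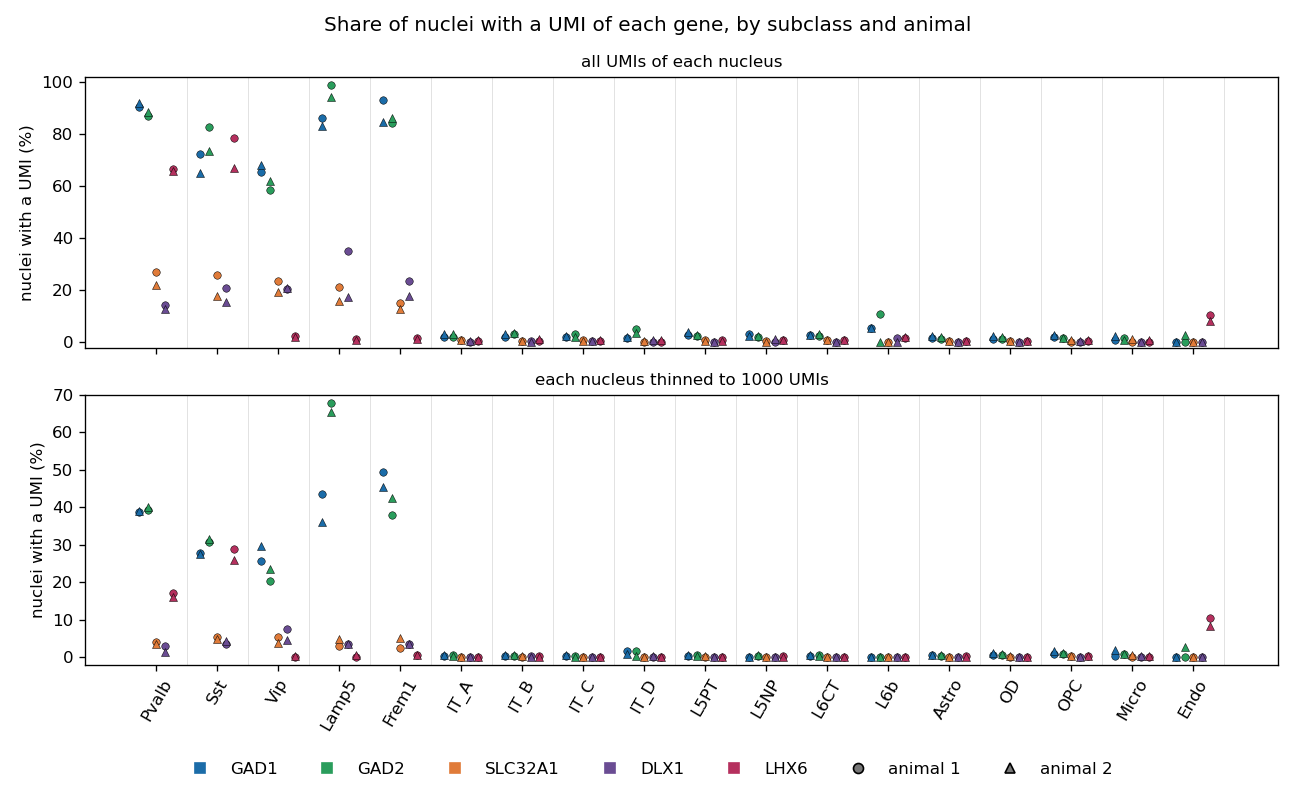
Share of nuclei (percent) with at least 1 UMI of each gene in the 18 subclasses, with all UMIs (top) and after thinning each nucleus to 1000 UMIs (bottom), circles for animal 1 and triangles for animal 2. The 5 GABAergic subclasses at the left stand above the 13 others for each gene but LHX6, which is near 0 in Vip, Lamp5 and Frem1 and higher in endothelial nuclei (10.3% and 8.33%, on 3 nuclei of each animal), and GAD2 in Lamp5 is the highest share after thinning.

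LHX6 was seen in 20 of 1181 CGE nuclei (1.69%), against 2170 of 3166 MGE nuclei (68.5%) and 0.753% ± 0.0848 (SD, n = 2) of glutamatergic nuclei, which were deeper. Of the 20 nuclei, 2 had 3 or more LHX6 UMIs and 0 had 5 or more, and none carried a doublet call. Among MGE nuclei, 741 had 3 or more. LHX6 and DLX1 were seen together in 10.3% and 9.40% of Pvalb and in 17.8% and 12.7% of Sst nuclei without thinning, and in 0% to 1.24% of CGE nuclei.

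Few nuclei outside the GABAergic class held several UMIs of the decarboxylases. In 81 of 20150 glutamatergic nuclei (0.402%) GAD1 and GAD2 together had 3 or more UMIs, and 34.6% of these had a Scrublet doublet call, against 2.63% of all glutamatergic nuclei. Their median depth was 14530 UMIs, against 8088. In non-neuronal nuclei there were 12 of 8267 (0.145%), of which 58.3% had a doublet call, against 1.74%.

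The animals were compared as a description, since each is 1 animal and its libraries share a suspension. LHX6 and SLC32A1 were higher in animal 1 in 5 of 5 GABAergic subclasses, DLX1 in 4, GAD2 in 3 and GAD1 in 1. The ratio of animal 2 to animal 1 ran from 0.799 to 0.991 for SLC32A1, from 0.904 to 1.13 for GAD1 and from 0.887 to 1.04 for GAD2. For DLX1 it reached 0.636 in Lamp5, and for LHX6 it ran from 0.320 in Lamp5 to 0.975 in Sst, with the CGE values on the few UMIs given above. In Pvalb the libraries of the 2 animals did not overlap for any of the 5 genes, where 57.8% of genes with at least 20 CPM did not overlap. Among genes of at least 20 CPM, 2 of 5 in Sst (50.6%), 1 of 4 in Vip (41.8%), 2 of 4 in Lamp5 (42.5%) and 3 of 4 in Frem1 (39.5%) did not overlap.

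The genes most alike in profile were found by correlation of log2(CPM + 1) in each animal. Over the 18 subclasses, which share the split between GABAergic and other nuclei, the most alike to GAD1 were SLC32A1, DLX2 and DLX1, with r of 0.945 to 0.971. The same 3 genes were the closest to GAD2, with a lowest r of 0.909. The closest to SLC32A1 were GAD1, DLX1 and DLX2, and the closest to DLX1 were DLX2, GAD1 and SLC32A1. The most alike to LHX6 were ELP, YWHAE and SLCO4C1, with r of only 0.717 to 0.788. The endothelial level of LHX6, on 7 UMIs, enters as 1 of the 18 points. ELP had its highest mean level there, at 27.6 CPM, while YWHAE was highest in Pvalb and SLCO4C1 in Sst. How far these matches depend on the endothelial point was not tested.

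Over the 15 GABAergic types, LHX6 was most like RASGRF2 (r = 0.947 and 0.959), SOX6 (0.968 and 0.947) and PRKAG2 (0.948 and 0.934). GAD2 was most like B3GLCT (0.893 and 0.911), BRINP2 and PID1, and GAD1 was most like CLMP (0.898 and 0.843), ENOX1 and DAZAP1. DLX1 was most like SDK1 (0.849 and 0.883), TULP4 and EXOC6, and SLC32A1 was most like BMP5 (0.739 and 0.736), ENO4 and TTPA. Among the 5 genes themselves, DLX1 and LHX6 had r of -0.592 and -0.565 over the types, and GAD1 and GAD2 had 0.422 and 0.428. Types of a subclass share their nuclei's origin and library, so these values describe the profiles only.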

How the data were processed

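RNA was counted in single nuclei of V1 of 2 animals. The authors aligned 10x 3′ v3 reads to the ASM229v1 assembly with introns included and deposited raw UMI counts per gene and nucleus. Cell Ranger 6.1.1 stands in the submitters' processing notes, and the matrix headers name 7.1.0. The deposited metadata held class, subclass and type labels and a Scrublet doublet score, a fraction that the authors computed per nucleus. Of 36558 barcodes, 32764 carried a subclass. The 124 GABAergic nuclei with a doublet call (2.85%) were kept, except in an alternative. Of 134 barcodes shared by 2 libraries, 3 belonged to GABAergic nuclei.

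Counts were summed per animal and subclass or type. Tests were edgeR's quasi-likelihood tests (edgeR 4.0.16, R 4.3.3) with TMM, filterByExpr and Benjamini-Hochberg adjustment over all genes tested, with an adjusted p of 0.05 as threshold. DESeq2 1.42.0 was an alternative. Tables were made with Python 3.11.15, numpy 2.4.6, pandas 2.3.3, scipy 1.17.1 and scikit-learn 1.9.0, and plots with matplotlib 3.10.9. Sums of an animal come from the same animal and were checked for pairing. Their deviations from subclass means correlated at 0.166 to 0.483 over 11100 genes, with a median of 0.242 over 10 pairs of subclasses. The animal was therefore a block in an alternative, and its value is given where it changed a call. Leaving out an animal leaves 1 sum per subclass and gives a value with no test. The other alternatives were RLE scaling, no low-count filter, equal nuclei (139 per subclass and animal), all 13 neuronal subclasses in the fit, and subclass labels predicted from the other animal by 15 neighbours in 30 principal components of 3000 genes other than the 5 genes and the lists. Leaving out the shallow types Pvalb_2 and Sst_2 was added after seeing the data. Predicted and deposited labels were the same for 98.8% of GABAergic nuclei in animal 1 and 97.3% in animal 2. Shares were read from nuclei thinned to 1000 UMIs, to 2000, or not thinned, with exact Clopper-Pearson 95% intervals. For a count of 0 the upper limit is taken as 3 counts. Neither the intervals nor this limit cover more than counting error.

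On simulated counts for the comparison of Pvalb and Sst with Vip, Lamp5 and Frem1, 98.5% of 200 changed genes were recovered among 10520 genes, with 10 false calls. The changed genes differed by 1 or 2 on the log2 scale, and 96.5% and 100% of these were recovered. For types within Pvalb, with a difference of 2 on that scale, 100% were recovered among 9944 genes, with 9 false calls. Recovery of smaller differences, such as those of GAD1, GAD2 and SLC32A1 between MGE and CGE subclasses, was not tested.

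The 5 genes and the lists were chosen with earlier results of these data known. From the lists, at most 12 genes that passed and differed at least 2-fold were named by size, and some listed genes and markers are not reported here. Most alike genes were the 3 with a symbol and the highest Pearson correlation with a gene in log2(CPM + 1), taking the lower animal, among genes with at least 20 CPM in at least 1 group of both animals.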

Additional observations from a re-analysis of the deposited data

Results flagged for a closer look

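Nuclei of clusters that the study left out passed the quality call but carry no subclass, and they entered no comparison. Signal of the 5 genes was above what a count of 0 allows in them, except for LHX6 in the first set below, which is why they are listed here. In 730 left-out nuclei of the GABAergic class marked ambiguous (median 1871 UMIs), GAD1 was at 372 CPM, GAD2 at 302, SLC32A1 at 66.8 and DLX1 at 42.2. LHX6 had 1 UMI there, under the floor of 1.71 CPM. GAD2 was at 67.9 CPM in those of animal 1 and 439 CPM in those of animal 2, while GAD1 was at 313 and 407 CPM. In 604 GABAergic nuclei of clusters marked as doublets (median 8039 UMIs), GAD1 was at 257, GAD2 at 374, SLC32A1 at 24.8, DLX1 at 14.8 and LHX6 at 68.0 CPM.

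In 276 ambiguous non-neuronal nuclei LHX6 was at 830 CPM, with 649 UMIs in 49 nuclei (17.8%), and it was high in both animals, at 967 and 692 CPM. That is above the 324 CPM of LHX6 in Sst of animal 1. GAD1 was at 81.8, GAD2 at 40.9, SLC32A1 at 6.39 and DLX1 at 11.5 CPM in those nuclei. In 705 non-neuronal nuclei marked as doublets GAD1 was at 16.7, GAD2 at 26.8, SLC32A1 at 2.55, DLX1 at 1.60 and LHX6 at 6.86 CPM. What these nuclei are was not tested.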

How the results depend on the processing

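With the animal as a replicate block, GAD1 (-0.19) and GAD2 (-0.15) passed in the comparison of MGE with CGE subclasses, and GAD1 also passed without Scrublet doublets (-0.20). For SLC32A1, 5 pairs of subclasses passed with the block, 4 with labels predicted from other genes, 5 without the types Pvalb_2 and Sst_2 and 0 with DESeq2, against 2. Leaving out these types was chosen after seeing the data. It also gave a call for SLC32A1 between MGE and CGE subclasses (0.40) and left 1 of the 5 genes, against 3, and 1051 genes, against 2010, called among Sst types. Between the Lamp5 types, 1 gene passed with RLE scaling and 1 with the block, against 0. With the block 469 genes were called among Vip types, against 268, and 207 among Lamp5 types, against 122, where no filter gave 188. Equal nuclei gave 1660 genes for Pvalb against Sst, against 2700. No other count of all genes called moved by over 1.5 times. LHX6 and DLX1 passed in the comparison of MGE with CGE subclasses in every alternative with a test. The number of genes called there was 2645 to 4414 across alternatives, with 4242 of 26956 tested with no filter. With the mean of each nucleus's own CPM, LHX6 in Sst exceeded Frem1 by 306 CPM, against 318. The difference in share of nuclei between the subclasses that were highest and lowest at 1000 UMIs moved with depth. For nuclei thinned to 2000 UMIs it was 29.5 percentage points for GAD1, 49.1 for GAD2 and 43.5 for LHX6, and unthinned it was 36.3 for GAD2, 7.83 for SLC32A1, 7.21 for DLX1 and 70.7 for LHX6. Of single pairs and type tests that passed, 14 of 302 values under an alternative lost the call. With all neuronal subclasses in the fit 4 were lost, and with no filter 1. Equal nuclei, DESeq2 and leaving out the shallow types each lost 3. No pair changed direction, and the type tests have no direction to change. Without Scrublet doublets, the highest Sst type for SLC32A1 became Sst_4 in place of Sst_1. The lowest for GAD1 became Sst_1 in place of Sst_2.

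Leaving out each animal gave log2 differences of -0.23 to -0.14 for GAD1, -0.19 to -0.11 for GAD2, 0.16 to 0.36 for SLC32A1, -0.84 to -0.73 for DLX1 and 5.67 to 6.55 for LHX6. For the share of nuclei with SLC32A1 in Sst over Frem1 the range was -0.244 to 3.00 percentage points, so its direction rests on animal 1. With 2 animals and nuclei whose labels come from the same counts, low levels limit what can be read, as in LHX6 in CGE types and SLC32A1 and DLX1 at thinned depth. The causes of the changes were not tested.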
